A study of Mus musculus with 9 samples.

Results

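Contacts of the mouse Dbp gene with chromosome 17 were read from every array probe that lies on that chromosome. These were 13569 of the 384942 probes on each of 9 arrays, chosen by their chromosome alone and not by their values. Of them, 477 lie in the block from 33 to 37 Mb, which was set against the other 13092. The probes are 59 nt long, run from chr17:3034366-95174836 and have a median spacing of 5157 bp (6588 bp in the block). Coordinates are 1-based and are those of the files, and the sources used here name no genome build for them. The position of Dbp in GRCm38.p6 does not lie in the 100 kb window at which the running mean of chromosome 7 peaks in the files, so no gene position of that assembly was applied to them.

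The arrays measured chromosome conformation capture-on-chip (4C) in fibroblasts cultured from mouse embryos, taken at embryonic day 13 after head and liver had been removed, on a C57BL/6 background according to the labels. All cells, mutant cells included, received dexamethasone for 2 h, a hormone pulse that synchronizes the circadian clocks of cultured cells, and were harvested at a stated circadian time (CT, in h). Wild-type (WT) line 1 was taken at CT22, CT26, CT30, CT34 and CT46, and both the Bmal1-/- line and the separate WT line 2 at CT22 and CT34 alone. Each combination of line and time is 1 array, so the spread given for line 1 runs over 5 times. WT line 1 and the Bmal1-/- line came from sibling embryos of 1 mating scheme and were grown in 5% newborn calf serum and 5% heat-inactivated fetal bovine serum with amino acids. WT line 2 came from another cross and was grown in 10% fetal bovine serum, so line and serum cannot be told apart. The mutant genotype is a single line, so genotype and line cannot be told apart either, and the arrays do not show whether Bmal1 was lost since they measure no expression. P-values therefore measure the spread between these arrays, not between independent embryos of a genotype. The array names of line 2 carry 24 and 36 where the labels give CT22 and CT34, and the times used here are those of the labels.

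In 4C, DNA that lies close together in the fixed nucleus is cut and ligated, and the partners of 1 chosen fragment, here at Dbp, are amplified and identified. Dbp encodes a PAR bZIP transcription factor whose transcription is driven by the clock protein BMAL1 with its partner CLOCK. Dbp lies on chromosome 7, so chromosome 17 can be reached only by contacts between chromosomes, which are in general rarer than contacts along 1 chromosome and tend to gather in gene-rich, active chromatin. Mouse chromosome 17 is known for the H2 genes of the major histocompatibility complex, which encode antigen-presenting proteins, and for olfactory receptor genes next to them. In the GRCm38.p6 assembly the chromosome holds 2192 annotated genes, with 50 H2 symbols and 64 Olfr symbols. Which windows hold them in the coordinates of the files was not determined.

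Each deposited value is the log2 ratio of 4C DNA over genomic DNA of the same cells at 1 probe. A probe was called high when its ratio exceeded the 95th percentile of its own array, taken over the 365587 probes off chromosome 7, the viewpoint chromosome. By construction about 1 in 20 probes off chromosome 7 is high, between 4.97% and 5.00% on the arrays of line 1 and Bmal1-/-. On those of line 2, whose ratios tie at the threshold, it was 4.79% and 4.80%. The threshold (log2) ranged from 1.64 to 2.07 over the arrays of line 1 and was 2.16 and 2.73 for the mutant and 0.51 and 0.52 for line 2. The SD of the ratios over all probes, chromosome 7 included, ranged from 0.825 to 0.929 over the arrays of line 1. It was 0.920 and 1.10 for the mutant and 0.391 and 0.411 for line 2. Ratios of line 2 thus span a narrower range. Lines are compared by their shares, and log2 values of line 2 are printed on their own narrower scale, without comparison of their size. All arrays carry the same probes, so what recurs between arrays holds the properties of the probes as well as contacts, and the part of each was not tested.

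Over the whole chromosome, high probes were more frequent than off chromosome 7 on all 9 arrays. In WT line 1 the share was 6.71% at CT22, 6.88% at CT26, 6.57% at CT30, 6.40% at CT34 and 6.58% at CT46. On the mutant arrays it was 5.97% (CT22) and 6.48% (CT34). WT line 2 had 5.18% and 5.08% at these times. All line 1 arrays lay above both arrays of line 2, and the mutant array of CT34 lay within the range of line 1 while that of CT22 lay below it. Relative to the share off chromosome 7, the fold was 1.33 ± 0.038 (SD, n = 5) in line 1, 1.25 ± 0.070 (n = 2) in Bmal1-/- and 1.07 ± 0.016 (n = 2) in line 2. The order of the lines depended on the percentile: above the 99th, line 2 was highest with 1.36 ± 0.020, against 1.31 ± 0.072 in line 1 and 1.28 ± 0.034 in Bmal1-/-. At CT22 the exact 95% Clopper-Pearson interval of line 1 ran from 6.29% to 7.14%, that of the mutant from 5.58% to 6.38% and that of line 2 from 4.81% to 5.57%. Such intervals cover counting error only, and neighbouring probes are not independent. Among 19 chromosomes ranked by their share, with chromosome 7 and the one numbered 21 in the files left out, chromosome 17 ranked 4 on all line 1 and Bmal1-/- arrays except line 1 at CT26, where it ranked 3, and 5 and 7 on the arrays of line 2. It exceeded chromosome 10 on 9 of 9 arrays and chromosome 15 on 1 of 9.

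**Figure D1:**
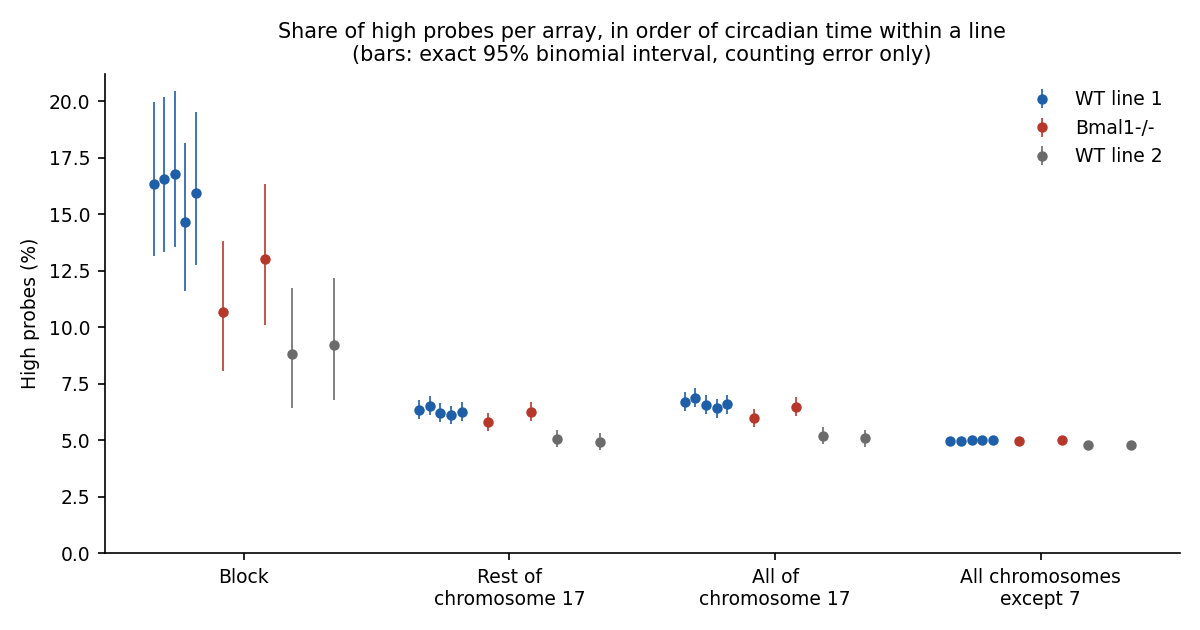
Share of high probes (%, vertical axis) in the 33 to 37 Mb block, the rest of chromosome 17, the whole chromosome and all chromosomes except 7. Each point is 1 array, ordered by circadian time within a line, with its exact 95% binomial interval; in the block the line 1 arrays sit at 14.7% to 16.8%, Bmal1-/- at 10.7% and 13.0% and line 2 at 8.81% and 9.22%.

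The block from 33 to 37 Mb held high probes more often than the rest of the chromosome on every array. In line 1 the block had 16.4% high probes at CT22, 16.6% at CT26, 16.8% at CT30, 14.7% at CT34 and 15.9% at CT46. The mutant arrays had 10.7% (CT22) and 13.0% (CT34). Those of line 2 had 8.81% (CT22) and 9.22% (CT34). The 3 lines did not overlap, with line 1 highest and line 2 lowest. Outside the block the means were 6.29% ± 0.16 in line 1, 6.02% ± 0.31 in Bmal1-/- and 4.99% ± 0.086 in line 2. The block therefore held 2.55 ± 0.11 times the share of the rest in line 1 (lowest 2.40, highest 2.70), 1.96 ± 0.17 times in Bmal1-/- and 1.81 ± 0.091 times in line 2. Above the 99th percentile the ratios of Bmal1-/- (2.57 and 2.67) lay within those of line 1 (2.15 to 3.89). The block was taken up because earlier results of these data showed signal there, so its excess is a description and was given no test. Line 1 makes up 5 of the 9 arrays, so the choice may favour line 1 when lines are compared. Cut into consecutive pieces of 4 Mb, the block ranked 2 of 24 on chromosome 17 and 10 of 621 off chromosome 7 by the line 1 mean, and between 7 and 22 of 621 on single arrays. The piece at chr17:25000001-29000000 ranked above it with 16.8% ± 2.29 in line 1.

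Within the block the high probes were not spread evenly. In line 1 the 1 Mb window chr17:33000001-34000000 had 16.7% ± 3.92, chr17:34000001-35000000 had 23.0% ± 2.11 and chr17:35000001-36000000 had 19.5% ± 5.18 (SD, n = 5). The fourth window, chr17:36000001-37000000, had 3.36% ± 1.70, below the share off chromosome 7. The next window, chr17:37000001-38000000, had 1.04% ± 0.73, and chr17:38000001-39000000 had 2.48% ± 1.15. The raised shares of the block thus ended before its last window, whereas on the other side they ran on, with 11.2% ± 2.93 at chr17:32000001-33000000 and 13.7% ± 2.70 at chr17:31000001-32000000. The same drop was present in the other lines: chr17:34000001-35000000 had 16.8% ± 3.57 in Bmal1-/- and 15.1% on both arrays of line 2, and chr17:36000001-37000000 had 3.74% ± 1.32 and 4.21% ± 0.66. Without the fourth window the block had 19.7% in line 1.

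**Figure D2:**
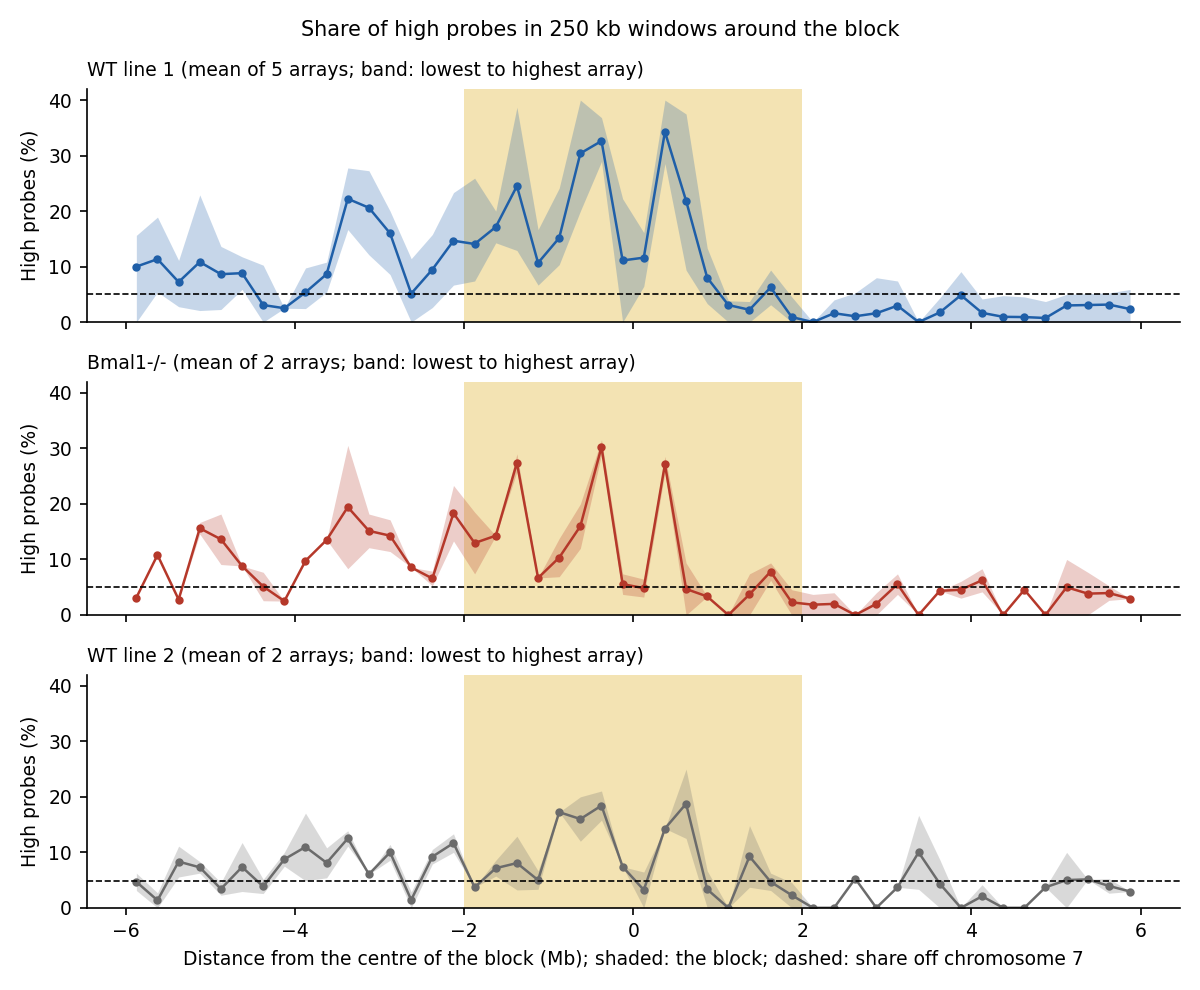
Share of high probes (%, vertical axis) in 250 kb windows against distance from the centre of the block (Mb), with 1 panel per line; points are means over arrays, bands run from the lowest to the highest array and the dashed line is the share off chromosome 7. The peaks of line 1 reach 34.3%, 32.6% and 30.4%, and of the 4 windows between 1 and 2 Mb right of the centre 3 have a line 1 mean of 3.08% or less.

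At 250 kb the block contained 3 of the 4 windows of the chromosome with the highest share in line 1. In chr17:35250001-35500000 (35 probes) 37.1%, 31.4%, 40.0%, 28.6% and 34.3% of the probes were high at CT22, CT26, CT30, CT34 and CT46. The same window had 25.7% and 28.6% in Bmal1-/- and 14.3% on both arrays of line 2. In this window only the mutant array of CT34 reached the lowest line 1 array, but the choice by line 1 share favours line 1. In chr17:34500001-34750000 (38 probes) line 1 had 31.6%, 28.9%, 31.6%, 36.8% and 34.2%, Bmal1-/- had 28.9% and 31.6% and line 2 had 15.8% and 21.1%. Here the mutant arrays lay within the range of line 1. In chr17:34250001-34500000 (25 probes) line 1 had 36%, 40.0%, 28%, 28% and 20.0%, Bmal1-/- 12% and 20.0% and line 2 20.0% and 12%. This window had few probes, so 1 probe is worth 4 percentage points. Between these peaks lay poorer windows, such as chr17:34750001-35000000 (27 probes) with 3.70%, 0%, 14.8%, 14.8% and 22.2% in line 1, where a count of 0 allows a share of up to 11.1%. At the right edge the share in line 1 was 21.9% ± 11.5 at chr17:35500001-35750000, 8% ± 3.80 in the next window and 3.08% ± 1.72 in the one after.

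Outside the block, high probes gathered in a small number of further stretches. The 1 Mb windows with at least 2 times the share off chromosome 7 in the line 1 mean formed 7 stretches, which held 18.6% of the probes of chromosome 17. They held 45.0% ± 2.74 of its high probes in line 1, 40.2% ± 2.37 in Bmal1-/- and 30.3% ± 0.84 in line 2. Line 1 chose these stretches, so its own value is a description, while the other lines did not enter the choice. Outside the stretches, 4.48% ± 0.14 of the probes were high in line 1, 4.57% ± 0.083 in Bmal1-/- and 4.39% ± 0.12 in line 2. The remaining 11040 probes were below the average off chromosome 7 in every line. That average still holds the windows of other chromosomes that would pass the same rule. A lower remainder thus follows in part from taking out the stretches and is not read as a trait of chromosome 17.

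The longest stretch, chr17:23000001-29000000, had 18.5% ± 2.78 high probes in line 1, 16.3% ± 2.33 in Bmal1-/- and 10.0% ± 0.083 in line 2. The one around the block, chr17:31000001-36000000, had 16.6% ± 1.44, 13.7% ± 1.40 and 9.69% ± 0.54. The third, chr17:45000001-47000000, had 18.9% ± 3.13, 14.0% ± 5.00 and 8.25% ± 1.67. These 3 kept an excess in all lines, with line 2 lowest. The others were weaker. At chr17:56000001-57000000 line 1 had 13.7% ± 2.61, Bmal1-/- 10.4% ± 0.59 and line 2 6.67% ± 2.36. At chr17:6000001-8000000 the means were 11.6% ± 1.77, 7.17% ± 2.03 and 5.73% ± 0.51. At chr17:84000001-85000000 the mutant was highest with 13.0% ± 1.76, line 1 had 10.9% ± 2.27 and line 2 had 3.42% ± 3.07, below its share off chromosome 7. At chr17:79000001-80000000 the values were 10.0% ± 1.63, 9.94% ± 1.28 and 4.82% ± 0.85.

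**Figure D3:**
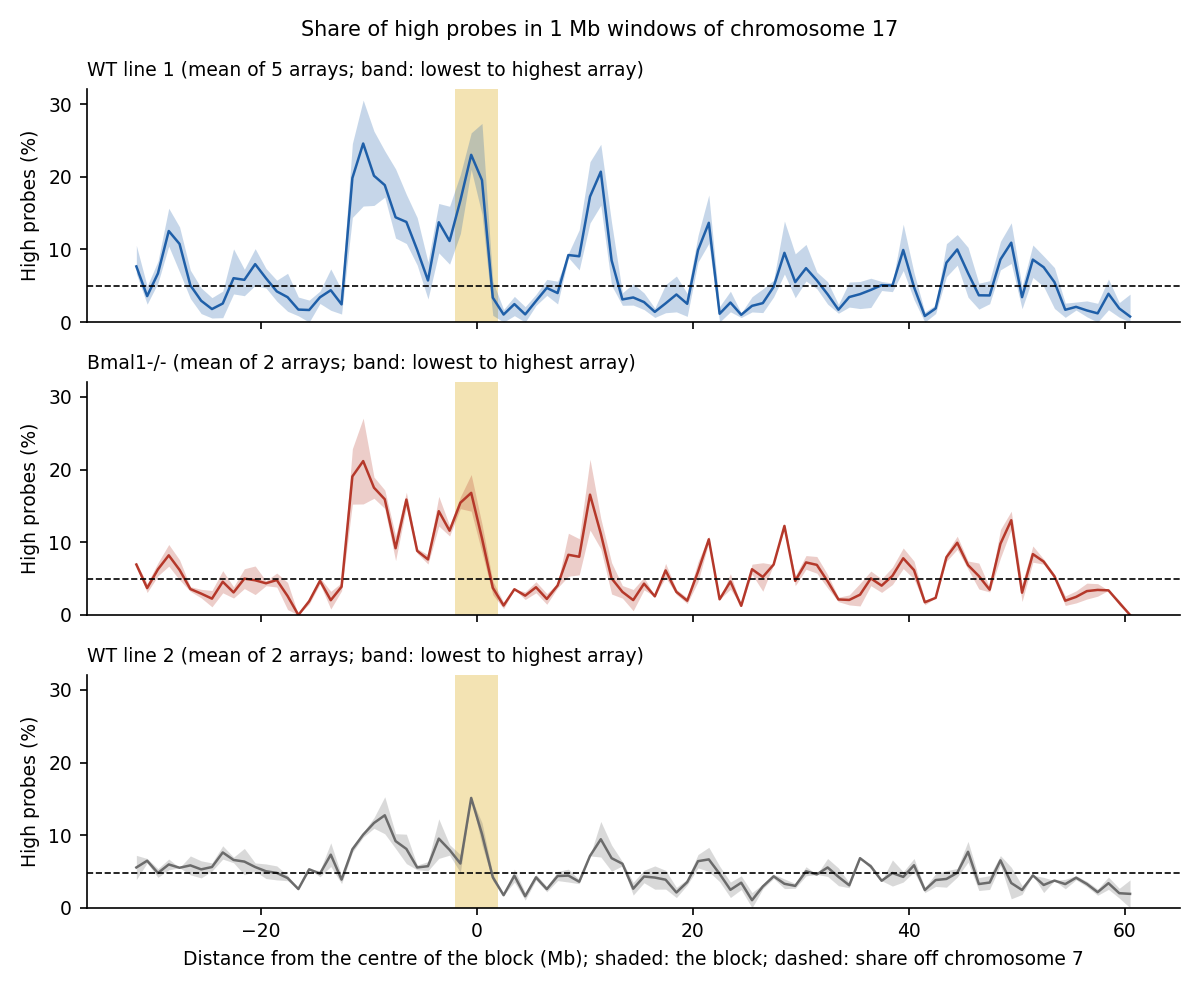
Share of high probes (%, vertical axis) in 1 Mb windows of chromosome 17 against distance from the centre of the 33 to 37 Mb block (Mb), with 1 panel per line; lines are means over arrays, bands run from the lowest to the highest array, and the dashed line is the share off chromosome 7. The 3 highest peaks of line 1 reach 24.6%, 23.0% and 20.7%, and the same positions are raised, at lower shares, in Bmal1-/- and line 2. These peaks were picked by their line 1 mean, which favours line 1.

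The highest 1 Mb window of the chromosome was chr17:24000001-25000000, with 30.6%, 29.9%, 22.2%, 24.3% and 16.0% in line 1 in the order of the times. Bmal1-/- had 15.3% and 27.1% there and line 2 had 10.4% and 9.72%. Line 1 varied widely in this window, and 3 of its 5 values lay between those of the mutant arrays. In chr17:46000001-47000000 line 1 had 21%, 24.5%, 16.1%, 18.2% and 23.8%, Bmal1-/- had 9.09% and 13.3% and line 2 had 6.99% and 11.9%. Here all line 1 arrays lay above those of the other lines. The window was named for its high line 1 mean, which favours line 1, so this is a description only. The windows chr17:25000001-26000000, chr17:23000001-24000000 and chr17:26000001-27000000 followed with line 1 means of 20.1% ± 3.74, 19.8% ± 4.59 and 18.9% ± 2.69.

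Among 250 kb windows outside the block, chr17:46250001-46500000 was highest in line 1 with 33.3% ± 7.02, against 19.2% ± 9.07 in Bmal1-/- and 15.4% ± 3.63 in line 2. The next were chr17:23750001-24000000 with 30.0% ± 6.38, 27.9% ± 10.4 and 7.35% ± 2.08, and chr17:45250001-45500000 with 26.7% ± 9.28, 22.6% ± 5.05 and 5.95% ± 1.68. All of these windows were named for a high line 1 mean, which favours line 1 when lines are compared. Among them, line 2 was lowest in chr17:23500001-23750000 (32 probes). In that window line 1 had 40.6%, 34.4%, 9.38%, 25.0% and 25.0% and Bmal1-/- 25.0% and 28.1%. Line 2 had no high probe there on either array. Among 32 probes a count of 0 allows a share of up to 9.38%, no lower than the share of line 1 at CT30, so that pair of arrays was not distinguishable at this probe number. The remaining windows of the 10 highest were chr17:25500001-25750000 with 26.1% ± 10.6 in line 1, chr17:25750001-26000000 with 25.3% ± 7.67 and chr17:24750001-25000000 with 24.8% ± 3.95. In chr17:25500001-25750000 line 2, at 18.2% on both arrays, was above the mutant mean of 13.6% ± 6.43.

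At the other end, 12 of 362 windows of 250 kb with at least 20 probes had no high probe on any line 1 array (3.31%), beside 3.00% of the windows off chromosome 7. These 12 tie at 0, and the last 5 of them along the chromosome were chr17:76750001-77000000, chr17:89000001-89250000, chr17:91500001-91750000, chr17:91750001-92000000 and chr17:92000001-92250000. The first 2 and the last of these had none in Bmal1-/- either. Line 2 had 9.76% and 7.32% high probes in chr17:91500001-91750000, where line 1 had none. With 27 to 41 probes in these 5 windows, a count of 0 on 1 array allows a share of up to 7.32% to 11.1%. In pieces of 10 Mb, line 1 was highest at chr17:20000001-30000000 with 13.8% ± 1.83 and lowest beyond 90000001 with 2.06% ± 0.51. Line 2 exceeded line 1 in the pieces from 50000001 and 90000001 and, by the widest margin, in chr17:10000001-20000000, with 5.45% ± 0.20 against 4.16% ± 0.77.

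Windows were then counted as high-share when their share of high probes was at least 3 times that of the array off chromosome 7. In line 1, 44 of 362 windows of chromosome 17 were high-share at CT22 (6.03% of windows off chromosome 7), 48 at CT26 (7.15%), 45 at CT30 (6.47%), 35 at CT34 (5.34%) and 45 at CT46 (5.94%). On the mutant arrays there were 28 at CT22 (4.27%) and 37 at CT34 (5.34%). On those of line 2 there were 10 (1.94%) and 12 (2.21%). As a share of chromosome 17 these counts ran from 9.67% to 13.3% in line 1, were 7.73% and 10.2% in Bmal1-/- and 2.76% and 3.31% in line 2. On each array chromosome 17 was thus above its background, by the fewest windows in line 2.

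Recurrence over the times of line 1 was higher than background as well. On all 5 arrays of line 1, 15 windows were high-share (4.14%), beside 1.30% of windows off chromosome 7. Both Bmal1-/- arrays shared 17 windows (2.12% off chromosome 7) and both line 2 arrays shared 5 (0.607%). On all line 1 and Bmal1-/- arrays there were 6 (0.766%). On all 9 arrays there was 1, chr17:34500001-34750000 in the block, beside 0.117% off chromosome 7. The block held 3 of the 15 windows of line 1, the stretch chr17:23000001-29000000 held 5 and the stretch chr17:45000001-47000000 held 3. The stretches were chosen by line 1 shares, so their counts follow in part from that choice. In 1 Mb windows, 5 of 93 were high-share on all 5 arrays of line 1, beside 1.38% off chromosome 7. Probe number did not track the share (Spearman's rho 0.029 across 362 windows, a description), and the 15 recurrent windows had a median of 34 probes against 38 on the chromosome.

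Recurrence of single probes stood less far above its background than recurrence of windows. On all 5 arrays of line 1, 48 of 13569 probes were high (0.354%), beside 0.245% of probes off chromosome 7. Of these 48, 34 lay in the 7 stretches and 8 in the block. The stretches hold 18.6% of the probes of the chromosome. They were chosen by the high probes of these same 5 arrays, so this count follows in part from that choice. Yet 205 of the 477 probes of the block (43%) were high on at least 1 line 1 array, against 22.5% of chromosome 17, beside 18.4% off chromosome 7. Most high probes of the block were thus not high on all 5 arrays, although 3 of its windows were high-share on all 5. In line 2 305 probes of chromosome 17 were high on both arrays (2.25%), beside 2.24% off chromosome 7, a share at the background.

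Only 2 probes of chromosome 17 were high on all 9 arrays, beside 0.00903% off chromosome 7. The probe at chr17:34585340-34585398, in the block, had log2 ratios of 3.59, 2.79, 3.65, 3.17 and 3.56 in line 1. The mutant arrays had 3.21 and 4.38 and those of line 2 had 3.14 and 2.88. The mutant array of CT34 was highest. Its nearest neighbours, 3817 bp before it and 8772 bp after it, were each high on 1 of 9 arrays. The probe at chr17:88702913-88702971 had 3.32, 2.21, 3.85, 4.18 and 3.64 in line 1, 2.62 and 3.32 on the mutant arrays, and 0.62 and 0.55 on those of line 2. There, line 2 stood just above its own threshold. Its neighbours, 2365 bp and 2431 bp away, were high on 1 and on 0 arrays. The next 3 probes by mean rank over the arrays were chr17:34501554-34501612, in the block and high on 8 arrays, and chr17:25164572-25164630 and chr17:29349423-29349481, each high on 7. The first of these had 4.06, 2.71, 0.71, 3.87 and 3.29 in line 1, so a probe near the top of the chromosome was below the threshold at CT30 alone. Both neighbours of each of the other two were high on 0 of 9 arrays.

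How often a high probe was followed by another high probe was set beside the share of high probes, which is the rate without any pairing. In line 1 the rate was 24.6% ± 1.96 in the block, whose share was 16.1%, and 11.7% ± 0.57 on the whole chromosome, whose share was 6.63%. Off chromosome 7 it was 8.92% ± 0.65 with a share of 4.99%, and outside the 7 stretches 6.16% ± 0.81 with a share of 4.48%. Much of the contrast between the block and the chromosome thus restates their shares. In Bmal1-/- the rate in the block, 12.2% ± 3.33, was close to its share of 11.8%, and the chromosome had 8.51% ± 2.61 with a share of 6.22%. In line 2 the rate in the block, 5.79% ± 1.45, was below its share of 9.01%. The block held only 42 and 44 high probes on the line 2 arrays and 51 and 62 on the mutant arrays. These rates thus rest on few pairs of probes.

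Profiles of shares along the chromosome were compared between arrays as a description, since all arrays share their probes. Across 362 windows of 250 kb, pairs of line 1 arrays had a median Pearson's r of 0.730 (range 0.675 to 0.786). For a line 1 array and a mutant array it was 0.707 (0.603 to 0.804). For 1 array of each WT line it was 0.402 (0.327 to 0.491), and the 2 arrays of line 2 had 0.583. In 1 Mb windows the values were 0.882, 0.838, 0.695 and 0.711 in the same order. The range of r between line 1 and the mutant thus overlapped that within line 1, while r between line 1 and line 2 was lower for every pair. A mutant array and a line 2 array had 0.271 to 0.394 at 250 kb. In 1 Mb windows r between the WT lines reached 0.756, above the 0.711 of line 2 with itself. How far the low r within line 2 sets its r with the other lines was not tested.

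The comparison of WT CT22 with WT CT34 asks whether contacts of chromosome 17 differ between opposite phases of a 24 h cycle. In the block, line 1 went from 16.4% to 14.7% and line 2 from 8.81% to 9.22%, so the lines moved in opposite directions. The difference of the means was -0.63 percentage points (exact two-sided permutation test, p = 1, n = 2 against 2), in a design whose smallest possible p is 0.333. Its sign rested on single arrays: it was 3.14 without line 1 at CT22 and 2.10 without line 2 at CT34. On the log2 scale, the mean of the block went from 0.63 to 0.59 in line 1 and from 0.079 to 0.094 in line 2. Of 367 windows of chromosome 17, 0 passed an adjusted p of 0.05 (limma, unpaired), beside 0% of 10027 windows of the genome. Differences between the lines stay in the residual of this fit, which can hide a change shared by both lines. At an unadjusted p of 0.05 there were 0, beside 0.0199%. With line as a block, which pairs the times within each line, there were 13, beside 2.61%, and again 0 after adjustment. Without line 2 at CT34 there were 8. In the unpaired fit the smallest p was that of chr17:80250001-80500000, which differed by -0.18 ± 0.081 (SE, CT34 minus CT22). Line 1 had 0.12 and -0.099 there and line 2 had 0.16 and 0.021. Both lines were lower at CT34 there, but the adjusted p was 1 (limma). The next, chr17:74750001-75000000 and chr17:17750001-18000000, differed by -0.18 ± 0.085 and -0.18 ± 0.11.

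A rhythm of 24 h was sought over the 7 WT arrays with line as a term. No window of chromosome 17 passed the threshold (limma F test, adjusted), beside 0% of the genome, and 19 of 367 had an unadjusted p under 0.05, beside 5.30%. That share is at the background. Without line 1 at CT34 there were 6. The window of smallest p, chr17:64250001-64500000, had a fitted amplitude of 0.56 on the log2 scale (adjusted p = 0.862, limma). Its line 1 values were 0.44, -0.16, -0.020, 0.21 and 0.60 in the order of the times, with -0.054 and -0.023 in line 2. The window was picked for its small p, so a cycle-like order of its values follows in part from the choice. Line 1 was highest at CT46 and CT22, which are 24 h apart. Yet CT34, the opposite phase of CT22, lay above CT26 and CT30, and line 2 was lower at CT22 than at CT34. The windows chr17:28000001-28250000 and chr17:15750001-16000000 had amplitudes of 0.35 and 0.24. In the block, CT46 lay 0.42 percentage points below CT22 in line 1, within the SD of 0.83 over its arrays.

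The comparison of Bmal1-/- with WT asks whether contacts of chromosome 17 depend on the clock activator. The share of high probes in the block was lower in Bmal1-/- (11.8% ± 1.63, n = 2) than in line 1 (16.1% ± 0.83, n = 5), by 4.21 percentage points, and both mutant arrays lay below all 5 of line 1. The exact two-sided permutation p was 0.0952, the smallest this design allows, and 0.286 after adjustment over 3 such comparisons, so the difference did not pass 0.05. The separation of the arrays was lost at the other percentiles: the difference was -4.88 percentage points above the 90th (exact permutation p = 0.190) and -0.63 above the 99th (p = 0.381). The differences at matched times were unequal: -5.66 percentage points at CT22 and -1.68 at CT34. On the whole chromosome Bmal1-/- was lower by 0.41 percentage points (p = 0.190, exact two-sided permutation test, adjusted p = 0.286), with -0.74 at CT22 and 0.074 at CT34. This difference was -0.15 without the mutant array of CT22, -0.66 without that of CT34 and -0.029 above the 99th percentile.

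The mean log2 ratio of the block did not follow its share of high probes. In line 1 it was 0.63, 0.57, 0.65, 0.59 and 0.66. It was 0.52 and 0.92 on the mutant arrays and, on the narrower scale of line 2, 0.079 and 0.094. The mutant arrays lay on either side of line 1, and the array with the higher mean, CT34, is also the one with the widest ratios on the whole array. Within the block, the widest difference in shares was at chr17:35000001-36000000: line 1 had 21.1%, 19.5%, 27.3%, 14.8% and 14.8%, and Bmal1-/- had 8.59% and 12.5%. In chr17:34000001-35000000 line 1 had 21%, 21.8%, 21.8%, 24.4% and 26.1% and Bmal1-/- 14.3% and 19.3%, again without overlap. How many 1 Mb windows elsewhere separate in this way was not counted, so the lack of overlap is a description only. In chr17:33000001-34000000 the mutant, at 16.3% and 14.6%, lay within the 12.2% to 20.3% of line 1. At 250 kb, 9 of 362 windows of chromosome 17 had both mutant arrays below all of line 1, beside 1.73% of windows off chromosome 7, and 9 had both above, beside 2.10%. None of them lay in the block.

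On the log2 scale, no 250 kb window of chromosome 17 passed the threshold between Bmal1-/- and WT over 6 arrays (limma with time as a term, adjusted p of 0.05), beside 0% of the genome. WT here includes both arrays of line 2 with their narrower ratios. At an unadjusted p of 0.05, 73 of 367 windows differed, 72 of them higher in Bmal1-/-, beside 18.3% of the genome. This is near the background. After quantile normalization there were 16, of which 9 were higher, beside 5.31%. The count also rested on single arrays, with 19 without the mutant at CT34, 119 without line 1 at CT22, and 35 and 47 without line 2 at CT22 and at CT34. With a trended, robust prior 14 windows of chromosome 17 passed the adjusted threshold, beside 3.43% of the genome. The smallest p belonged to chr17:60750001-61000000, where Bmal1-/- exceeded WT by 0.55 ± 0.081 (SE, adjusted p = 0.238, limma). There, line 1 had -0.074, 0.13, -0.079, -0.028 and -0.14, Bmal1-/- 0.33 and 0.64 and line 2 -0.11 and -0.064. Both mutant arrays were above all line 1 arrays in this window, which follows in part from its choice by p. Of 93 windows of 1 Mb, 35 had both mutant arrays above all of line 1 under median centring, and 0 had both below. The next, chr17:79000001-79250000 and chr17:81750001-82000000, differed by 0.63 ± 0.12 and 0.31 ± 0.059.

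Set against the 5 arrays of line 1 in 1 Mb windows, 11 of 93 windows of chromosome 17 passed the threshold (limma, adjusted p from 0.0151 to 0.0459), beside 9.18% of 2549 windows of the genome, a share close to that of chromosome 17, and all 11 were higher in Bmal1-/-. This comparison was chosen after seeing the data. The window chr17:60000001-61000000 had the smallest adjusted p: line 1 had -0.033, 0.00077, -0.090, -0.046 and -0.094, and Bmal1-/- had 0.25 and 0.20. Of the 11 windows, 9 had a share of high probes in line 1 below the mean of the chromosome, down to 1.21%. None lay in the block. The other 2 were chr17:80000001-81000000 (6.74%) and chr17:32000001-33000000 (11.2%), which lies just before the block and differed by 0.29 ± 0.075 (SE, adjusted p = 0.0459, limma). The mean share of high probes was lower in Bmal1-/- in 0 of the 11. Of all 93 windows, 59 were below the mean of the chromosome in line 1 and 4 lie in the block. In 48 of the 93 the mean share was lower in Bmal1-/-.

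This genotype difference depended on the scaling of the arrays. With each array centred on its median, the median of Bmal1-/- minus WT was 0.13 over windows off chromosome 7 and 0.17 on chromosome 17, where 87.2% of windows were higher in Bmal1-/- (85.7% off chromosome 7). After quantile normalization the medians were -0.021 and -0.0039, with 48.8% of windows of chromosome 17 higher (41.8% off chromosome 7). Against line 1 in 1 Mb windows, the median difference was 0.18 in the 18 windows of the stretches and 0.11 in the other 75 under median centring. Under quantile normalization these became -0.049 and 0.011. The 11 windows kept their sign under quantile normalization, at 0.080 to 0.17, but 0 windows of chromosome 17 passed there, with 19 at an unadjusted p of 0.05. In the block, 3 of 4 windows were higher in Bmal1-/- under median centring and 0 of 4 under quantile normalization. The latter differences were only -0.0001 at chr17:33000001-34000000 and -0.0016 at chr17:36000001-37000000. At chr17:34000001-35000000 and chr17:35000001-36000000 they were -0.11 and -0.23.

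**Figure D4:**
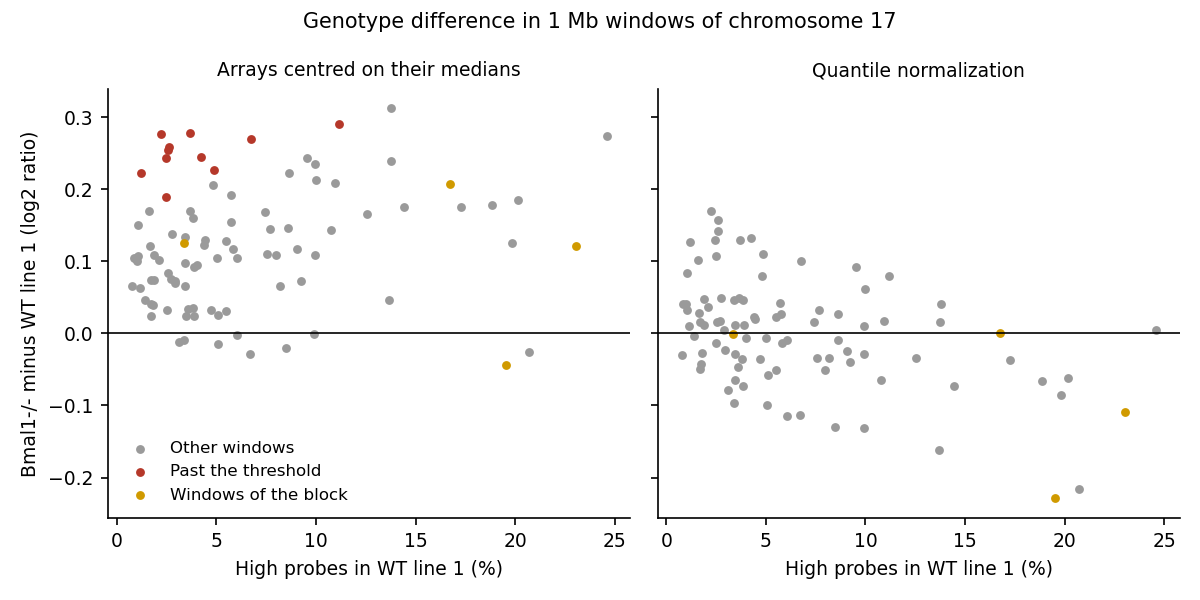
Difference of Bmal1-/- (2 arrays) minus WT line 1 (5 arrays) in mean log2 ratio (vertical axis) against the share of high probes in line 1 (%, horizontal axis), for the 93 windows of 1 Mb of chromosome 17. With median centring (left) 84 of 93 windows lie above 0 and the 11 past the limma threshold are marked; with quantile normalization (right) 47 of 93 lie above 0 and none passed.

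The interaction of genotype and time asks whether the step from CT22 to CT34 differs between the genotypes. In the block the share at CT34 minus that at CT22 was 2.31 percentage points in Bmal1-/-, -1.68 in line 1 and 0.42 in line 2, each from 1 array per time. The mean log2 ratio of the block went from 0.52 to 0.92 in Bmal1-/-. No window of chromosome 17 passed the threshold (limma, adjusted), beside 0% of the genome. At an unadjusted p of 0.05 there were 9 of 367, beside 2.28%, which is near the background. That count depended on the fit: with line as a block it was 94, 87 of them above 0, beside 19.4%, with a smallest adjusted p of 0.117 (limma). It was 0 after quantile normalization, beside 0.648%, and 0 without line 1 at CT22 or line 2 at CT34, 2 without line 1 at CT34 and 13 without line 2 at CT22. The interaction was above 0 in 70.8% of windows of chromosome 17 with median centring (64.4% off chromosome 7) and in 52.9% after quantile normalization (46.7%). The smallest p was at chr17:83500001-83750000, with an interaction of 0.64 ± 0.17 (SE, adjusted p = 0.996, limma): Bmal1-/- went from 0.14 to 0.74, line 1 from 0.27 to 0.16 and line 2 from 0.071 to 0.10. The others named were chr17:31000001-31250000 with 0.42 ± 0.11 and chr17:36250001-36500000, in the block, with 0.49 ± 0.14.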

How the data were processed

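The 9 NimbleGen arrays, 1 per line and circadian time, carry both dyes. Per the labels, chromatin was cut with HindIII, ligated, cut with Csp6I and amplified from Dbp by inverse PCR. The 4C product carried Cy5 and the genomic DNA of the same cells Cy3 on every array. The deposited log2 ratios, 1 per probe, were written by NimbleScan, per the file headers, which also record a biweight mean. The log base is the convention of that software. No source used here states the background correction, the filters or the genome build.

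From these values, high probes (above the 95th percentile off chromosome 7) and their share were computed per array, and windows of 250 kb and 1 Mb were averaged after median centring. Windows with at least 10 probes (10027 of 250 kb) were fitted over the whole genome with limma 3.58.1 (lmFit, eBayes, two-sided, Benjamini-Hochberg) in R 4.3.3. Windows named or counted by share had at least 20 probes. Shares were compared by exact permutation tests over arrays. The limma fits were tested on simulated windows in which every array had the window spread of line 1 and no line effect. The real arrays differ in spread and by line, so that test does not cover how the fits behave on them. Scripts ran in Python 3.11.15 with scipy 1.17.1, matplotlib 3.10.9, pandas 2.3.3 and numpy 2.4.6.

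Named windows are the 10 highest and 5 lowest of 250 kb in the line 1 mean, the 1 Mb windows of the block with 2 neighbours on either side and the 5 highest elsewhere, and for each fit the windows past the threshold or the 3 of smallest p, and the 5 probes of highest mean rank. The region, its block and these rules were chosen with earlier results of these data known. Replicate numbers stand for the WT lines and pair WT CT22 with WT CT34, since the labels name the same line. The main fits of time, genotype and interaction did not use this pairing, and neither did the permutation tests. Line as a term was an alternative there, while the main rhythm fit included it. Line 1 minus line 2 at CT22 correlated with the same difference at CT34 over 367 windows of chromosome 17 (r = 0.756). Arrays rather than probes are the replicates, and their number limits the precision.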

Additional observations from a re-analysis of the deposited data

Results flagged for a closer look

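For 7 of 30 shares of high probes examined, several of which overlap, CT34 minus CT22 had 1 sign on the Bmal1-/- arrays and the opposite sign in both WT lines, with 1 array per line and time. The difference between genotypes was not tested for any of these shares. With 1 difference per line, random signs alone often give this pattern. No share over all windows was computed to set beside the count, so the count is not read as a result. The share of high probes on chromosome 17 differed by 0.509 percentage points in Bmal1-/-, against -0.30 in line 1 and -0.10 in line 2. In the block, chr17:34250001-34500000 differed by 8 percentage points in Bmal1-/- and by -8 in each WT line. In chr17:45250001-45500000 the values were 7.14, -11.9 and -2.38, and in chr17:24750001-25000000 they were 15.2, -6.06 and -3.03. Of 1 Mb windows, chr17:31000001-32000000 differed by 4.08, -6.12 and -5.44, chr17:24000001-25000000 by 11.8, -6.25 and -0.69 and chr17:26000001-27000000 by 2.55, -1.27 and -5.10. The Bmal1-/- array of CT34 has the widest ratios of all (SD 1.10), and the part of that in these values was not tested.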

How the results depend on the processing

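The shares depend on the percentile by construction: in line 1 the chromosome had 12.6% above the 90th, 1.30% above the 99th and 6.42% with autosomal probes alone, and the block 26.6%, 3.77% and, with the percentile of chromosome 17 itself, 12.6%. The ratio of the block to the rest in line 1 was 2.20 ± 0.15 and 3.15 ± 0.70 at the 90th and 99th percentiles. The block had 21.2% between 34 and 36 Mb, 12.8% between 32 and 38 Mb and, added after seeing the data, 19.7% between 33 and 36 Mb. Recurrent high-share windows numbered 34 at 2 times and 6 at 4 times the share off chromosome 7, and 5 at 1 Mb. For CT22 against CT34 in the block, leaving out 1 array gave -4.40 to 3.14, and the sign turned to 3.14 without line 1 at CT22 and to 2.10 without line 2 at CT34. For Bmal1-/- against WT, trend and robust options called 14 windows of chromosome 17 (344 in the genome), and, added after seeing the data, the 5 line 1 arrays at 1 Mb called 11, or 9 after division by the array SD. Why these counts differ was not tested. With trend and robust options, chr17:60750001-61000000 also passed (0.55, adjusted p = 4.06e-05, limma). Leaving out 1 array left 0 windows called in the limma comparisons of time, genotype and rhythm, and in the interaction for the WT arrays. The interaction could not be fitted without either mutant array. With line as the replicate block, 0 windows were called for time, genotype and their interaction, and 0 for the rhythm with no replicate block, so the pairing changed no adjusted call, although it moved the counts at an unadjusted p (from 0 to 13 for time and from 9 to 94 for the interaction; for the rhythm 19 with it and 1 without). CT22 against CT34 in the block was 0 with a block of 34 to 36 Mb. The genotype differences in share kept their sign in every setting run but not their size, reaching -0.029 (chromosome) and -0.63 (block) above the 99th percentile. Few arrays, 1 per line and time, and the compressed ratios of line 2 limit every comparison.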
